A study of Mus musculus with 40 samples.

Results

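The ligands of the colony stimulating factor 1 receptor, the receptor itself and the genes by which resident kidney macrophages are commonly recognised make up a set of 10 genes: Il34, Csf1, Csf1r, Adgre1, Cd68, C1qa, C1qb, C1qc, Mrc1 and Ccl2. They were chosen by gene symbol from the 55401 genes of the count table, as a list drawn up when differences between Akita and WT kidneys in these same libraries were already known. The values that prompted each choice are not recorded, so every difference between genotypes below describes these libraries, and its adjusted p places a gene among all genes tested without being independent support. Averaged over the 40 libraries, 17769 genes reached 10 counts, among them 9 of the 10. Ccl2 fell below it and enters no test.

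RNA from the renal cortex was sequenced in 40 male C57BL/6J mice, each library being made from 1 animal, in 8 groups of 5. Akita mice carry 1 mutant copy of Ins2 and are diabetic, and their WT littermates are not. From 6 to 22 weeks of age the mice of each genotype received the ethanol vehicle (10% ethanol in water) or MitoGamide at 10 mg/kg in that vehicle by daily gavage, or else water or MitoQ, for which the labels give no dose. The study's text describes only the ethanol vehicle and MitoGamide, so that water was the vehicle of MitoQ is taken here from the design. MitoGamide is a mitochondria-targeted scavenger of reactive dicarbonyls and MitoQ a mitochondria-targeted antioxidant, and the study asked whether MitoGamide protects the diabetic kidney. The Akita mutation makes insulin misfold in the beta cells of the pancreas, so these animals model diabetes through loss of insulin and not through insulin resistance.

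Csf1r encodes a receptor tyrosine kinase on which most tissue macrophages depend for survival and proliferation. It has a pair of known ligands, the cytokines encoded by Il34 and Csf1, which are unrelated in sequence and are made in different tissues. In the kidney, tubular epithelial cells are a known source of both, and macrophages lie between the tubules. Adgre1 and Cd68 encode a surface receptor and a lysosomal glycoprotein used to stain mouse macrophages, C1qa, C1qb and C1qc encode the chains of complement C1q, which macrophages secrete, Mrc1 encodes the mannose receptor, and Ccl2 encodes a chemokine that draws monocytes out of the blood.

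Library totals ran from 9106654 to 24321424 estimated counts, with a median of 15638394. In 4 libraries under 50% of the counts came from protein-coding genes (27.1% to 47.0%, against 50.2% to 73.5% in the other 36), and mitochondrial ribosomal RNA took 34.6% to 46.6% of their counts against 9.23% to 31.8%. They were Akita replicates 2 and 5 on water, WT replicate 3 on water and WT replicate 3 on MitoQ, and calls of members that changed without them are given both ways. The 8 proximal tubule markers fixed for a check of the tissue summed to 8251 to 13578 CPM (read counts normalised to the library's effective size) in Akita and to 8157 to 16112 CPM in WT. The 7 macrophage markers of the set together made up only 30.4 to 60.9 CPM in Akita and 45.8 to 87.96 CPM in WT. In whole tissue, fewer cells of a type and less RNA per cell cannot be told apart.

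Il34 was the member that set the genotypes apart. In GRCm38 it lies on the minus strand of chromosome 8 from 110741829 to 110805924 as a protein-coding gene, with 1959 bases of exon. It was lower in every Akita library than in every WT library, whichever vehicle or compound the mice received. Over the 40 libraries it averaged 1.75 ± 0.379 CPM in Akita and 8.44 ± 2.10 CPM in WT (SD, n = 20 each), and the underlying counts ran from 14 to 42 in Akita and from 34 to 201 in WT.

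On the ethanol vehicle the 5 WT mice had 11.3, 6.80, 7.64, 7.43 and 7.88 CPM of Il34. The 5 Akita mice on the same vehicle had 1.60, 1.96, 1.55, 1.91 and 1.98 CPM. No Akita mouse came near the lowest WT mouse, and the Akita values were the more even of both groups. On water the WT mice had 14.4, 4.77, 8.67, 10.8 and 7.08 CPM, the widest spread of Il34 in any group. Their Akita counterparts had 0.841, 2.05, 2.51, 1.33 and 2.11 CPM. The WT mouse at 14.4 CPM was replicate 1, a library that also held 292 CPM of Alb, the albumin transcript of liver, against at most 31.2 CPM in any other library. Alb was looked at after its values were seen, and its part in the Il34 level was not tested.

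The groups given a compound repeated the split. On MitoGamide the WT mice had 6.12, 9.34, 9.66, 6.82 and 7.51 CPM of Il34. The Akita mice given MitoGamide had 1.59, 2.08, 2.13, 1.85 and 1.65 CPM. Again no value of one genotype fell within the other's range. On MitoQ the WT mice had 7.90, 9.42, 7.35, 9.16 and 8.68 CPM. The Akita mice given MitoQ had 1.79, 1.69, 1.78, 1.38 and 1.20 CPM. Ordered by their means, the 4 WT groups came first (water, MitoQ, ethanol, MitoGamide) and the 4 Akita groups followed (MitoGamide, ethanol, water, MitoQ). Neighbouring groups of 1 genotype overlapped, and the gap between the lowest WT group and the highest Akita group was free of any library.

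**Figure D1:**
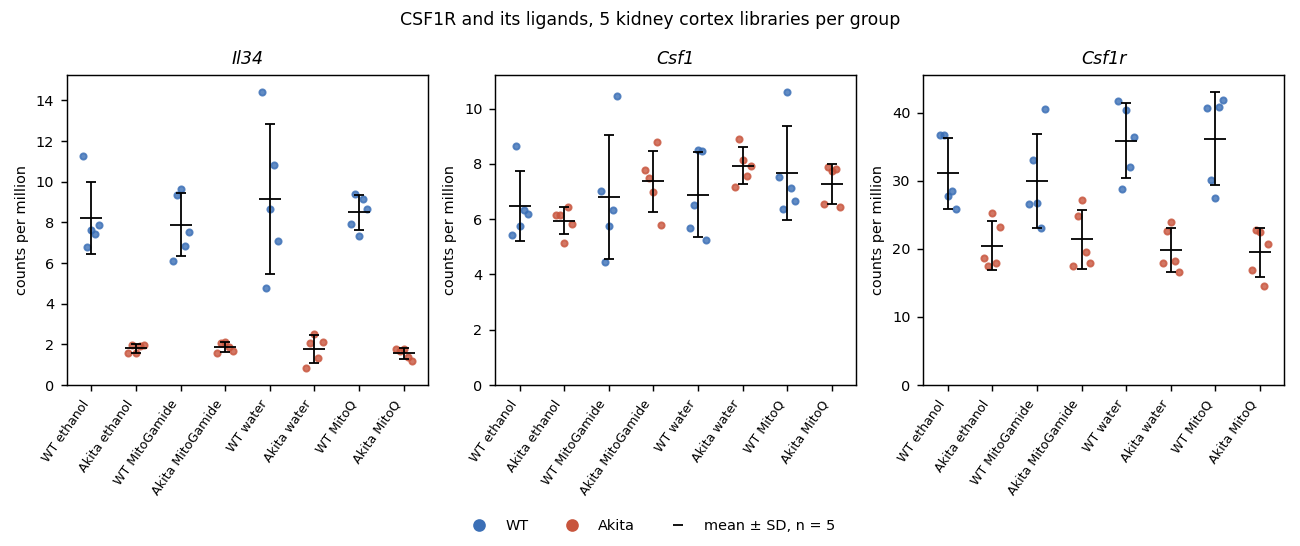
Normalised read counts (CPM, linear axis from 0) of Il34, Csf1 and Csf1r in the 8 groups; each point is 1 mouse, and bars give the mean and SD of 5 mice. The Akita libraries lie at 0.841 to 2.51 CPM for Il34 and the WT libraries at 4.77 to 14.4 CPM, while the genotypes overlap for Csf1 throughout and for Csf1r in the MitoGamide pair.

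A gene was called when edgeR's quasi-likelihood test gave it a Benjamini-Hochberg adjusted p below 0.05 over all genes tested in that comparison. With treatment as a term in the fit of 40 libraries, Il34 was 4.81-fold lower in Akita (log2 fold change -2.27, SE 0.11, adjusted p = 6.60e-19 by edgeR), which ranked it 5 of 17769 genes by p. The fold was 4.46 on ethanol (log2 -2.16, SE 0.15, adjusted p = 3.43e-06), 5.26 on water (-2.39, SE 0.35, adjusted p = 0.0139), 4.09 on MitoGamide (-2.03, SE 0.17, adjusted p = 6.96e-05) and 5.42 on MitoQ (-2.44, SE 0.16, adjusted p = 5.29e-05). In the MitoQ pair no gene had a smaller p. The calls on ethanol, MitoGamide and MitoQ and over 40 libraries held under every alternative run for them. For MitoQ and the 40 libraries these included leaving out the libraries low in protein-coding counts, of which the ethanol and MitoGamide pairs held none. The water call was lost without Akita replicate 4 (adjusted p = 0.0522) and without the 3 libraries low in protein-coding counts (adjusted p = 0.196), while the fold change itself stayed between -2.58 and -2.15 under every alternative tried for that pair. Without WT replicate 1 on water, the library rich in Alb, it was -2.15 with an adjusted p of 0.0334.

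The other ligand, Csf1, did not separate the genotypes. It lies on the minus strand of chromosome 3 from 107741048 to 107760469. Over the 40 libraries it averaged 7.13 ± 1.03 CPM in Akita and 6.95 ± 1.65 CPM in WT (SD, n = 20 each), a log2 difference of 0.04 (95% interval -0.13 to 0.20). The genotype comparison on each of the 4 treatments gave between -0.10 and 0.21, and Csf1 was called in none of them. These values moved with single mice of either genotype. On MitoGamide the difference of 0.13 ran from 0.02 without WT replicate 2 to 0.36 without WT replicate 5, and was 0.08 without WT replicate 3 and 0.06 without Akita replicate 4. On water it was 0.30 without WT replicate 3, in place of 0.21. The sign turned without WT replicate 2 on ethanol (0.03), without WT replicate 3 on MitoQ (0.07) and, to a value near 0, without Akita replicate 1 on MitoQ. Csf1 was not called when any of these mice was left out.

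Because CPM depends on transcript length, the ligands were compared per kilobase of exon. On that scale WT cortex held 4.31 ± 1.07 CPM per kb of Il34 and 1.32 ± 0.312 CPM per kb of Csf1, whereas Akita cortex held 0.893 ± 0.194 and 1.35 ± 0.196 CPM per kb (SD, n = 20 each). Il34 exceeded Csf1 in every WT library, by 1.87 to 6.86 times with a median of 3.43. In every Akita library it was the lesser ligand, at 0.317 to 0.917 times the Csf1 level with a median of 0.709. Without the 4 libraries low in protein-coding counts the ranges were 1.93 to 6.86 in WT and 0.317 to 0.917 in Akita (n = 18 each). This order rests on the division by summed exon length, which is not the effective length used in quantification. As plain CPM the ratio of Il34 to Csf1 was 0.694 to 2.54 in WT with a median of 1.27, so that Il34 did not exceed Csf1 in every WT library, and 0.118 to 0.340 in Akita with a median of 0.263. The ratios of the genotypes did not overlap on either scale, and the Csf1 level per kb was close in both.

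An antisense gene, Gm15895, overlaps the start of Il34. It lies on the plus strand of chromosome 8 from 110805638 to 110807477, and 75 bases of its exons are shared with the first exon of Il34 on the opposite strand. It averaged 0.184 ± 0.123 CPM in Akita (0 to 8 counts, 1 library at 0) and 2.15 ± 0.671 CPM in WT (9 to 55 counts), and no Akita library reached the lowest WT library, with or without the libraries low in protein-coding counts. Its log2 fold change was -3.51 over the 40 libraries (SE 0.21, adjusted p = 2.18e-16 by edgeR) and lay between -4.23 and -3.10 in the 4 treatment pairs, with a call in each. Every Akita library held fewer counts of Gm15895 than the count minimum, so the gene entered these tests through the WT libraries. The calls and fold changes of Gm15895 are therefore descriptions only. A further antisense gene, Gm15894, shares 22 bases with Il34 exons and had 0.355 CPM in the Akita mice and 0.600 CPM in the WT mice, below the count minimum in the fit of 40 libraries. The kit keeps strand, but whether strand was used in quantification is not given in the sources used here, so reads of the shared bases may have gone to either gene.

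Sequence is shown from the Il34 locus and from the C1q cluster, because the first holds the pair of overlapping genes that were both lower in Akita and the other holds neighbouring members that were not called. Each run is the 250 bases before the RefSeq start of the gene, 5′ to 3′ on the gene's own strand in GRCm38.p6. Capitals mark GAGGAA or its reverse complement TTCCTC, the core of the box bound by the myeloid factor PU.1 (Spi1), which 7639 of 32851 such windows (23.3%) hold on either strand. Of the members, 5 are in the RefSeq table used, and 4 of them hold the letters (Cd68, C1qb, C1qc and Mrc1, the last with 3 matches) and Csf1 does not. Il34, Csf1r, Adgre1, C1qa and Ccl2 were not matched. The Gm15895 window, which lies inside Il34 within its first intron by GENCODE, holds no match.
C1qb, chr4:136886201-136886450, minus strand: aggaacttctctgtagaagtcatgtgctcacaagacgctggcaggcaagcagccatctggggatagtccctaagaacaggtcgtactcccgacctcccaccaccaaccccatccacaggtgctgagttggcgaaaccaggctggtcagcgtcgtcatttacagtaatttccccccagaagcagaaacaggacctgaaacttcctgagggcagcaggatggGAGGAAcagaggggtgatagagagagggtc
C1qc, chr4:136892915-136893164, minus strand: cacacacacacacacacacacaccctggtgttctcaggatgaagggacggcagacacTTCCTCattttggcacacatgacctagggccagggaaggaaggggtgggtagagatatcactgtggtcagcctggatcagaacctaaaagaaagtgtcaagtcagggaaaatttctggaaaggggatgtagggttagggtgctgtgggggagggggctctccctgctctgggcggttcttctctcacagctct
Gm15895, chr8:110804946-110805195, plus strand: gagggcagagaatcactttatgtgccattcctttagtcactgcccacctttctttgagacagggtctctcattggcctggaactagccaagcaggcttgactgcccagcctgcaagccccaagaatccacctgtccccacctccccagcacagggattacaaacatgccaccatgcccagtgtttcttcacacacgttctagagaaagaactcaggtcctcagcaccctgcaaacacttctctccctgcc
The RefSeq starts of Gm15895, C1qb and C1qc differ from their GENCODE starts, and part of the C1qc window lies within the GENCODE gene (chromosome 4, 136889804 to 136893065). A match is a description of letters and not of a bound site.

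Csf1r, the receptor shared by both ligands, was also lower in Akita cortex, by a smaller factor. It averaged 20.3 ± 3.49 CPM in Akita and 33.3 ± 6.33 CPM in WT (SD, n = 20 each), with ranges of 14.6 to 27.1 CPM and 23.1 to 41.9 CPM that overlap. In the fit of 40 libraries it was 1.64-fold lower (log2 fold change -0.71, SE 0.08, adjusted p = 1.67e-08 by edgeR), and every one of the 10 alternatives kept that call. The gene lies on the plus strand of chromosome 18 from 61100598 to 61132149.

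On ethanol Csf1r stood at 36.8, 36.8, 27.8, 28.5 and 25.8 CPM in WT and at 18.6, 17.4, 25.4, 17.9 and 23.2 CPM in Akita. The highest Akita mouse was just below the lowest WT mouse. On water it stood at 41.8, 28.9, 40.4, 32.0 and 36.5 CPM in WT and at 17.9, 22.6, 24.0, 18.2 and 16.6 CPM in Akita. On MitoQ it stood at 40.7, 30.1, 27.5, 40.8 and 41.9 CPM in WT and at 16.8, 22.8, 22.5, 14.6 and 20.7 CPM in Akita. In these 3 pairs the genotypes did not overlap. On MitoGamide the WT mice had 26.6, 33.1, 26.7, 23.1 and 40.6 CPM and the Akita mice 17.5, 24.9, 27.1, 19.5 and 17.95 CPM, so that the 2 highest Akita mice lay within the WT range. All 4 WT means (30.0 to 36.2 CPM) were above all 4 Akita means (19.5 to 21.4 CPM), although each group overlapped its neighbour in that order.

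The log2 fold change of Csf1r was -0.59 on ethanol (SE 0.13, adjusted p = 0.00807 by edgeR), -0.86 on water (SE 0.16, adjusted p = 0.0339), -0.45 on MitoGamide (SE 0.17, adjusted p = 0.0979) and -0.90 on MitoQ (SE 0.17, adjusted p = 0.0422). The ethanol call held under every alternative. The water call held without Akita replicate 3 or WT replicate 2 and was lost when any other library of that pair was left out (adjusted p up to 0.115), and also without the libraries low in protein-coding counts (adjusted p = 0.338). The MitoQ call held without WT replicate 3 (log2 -0.98, adjusted p = 0.00891) and was lost when any other library was left out (adjusted p up to 0.145) and with no filter on low counts (0.0562). On MitoGamide Csf1r was called in the fit of all 40 libraries (-0.49, adjusted p = 0.0476). The fold change on water and on MitoQ stayed below -0.78 in all of those fits. Csf1r shares 873 exon bases with Hmgxb3 on the opposite strand, and Hmgxb3 averaged 34.8 CPM in Akita mice and 37.7 CPM in WT mice (log2 -0.12 over 40 libraries, adjusted p = 0.0315 by edgeR). Hmgxb3 was thus itself called lower in Akita over the 40 libraries, and in none of the 4 treatment pairs.

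**Figure D2:**
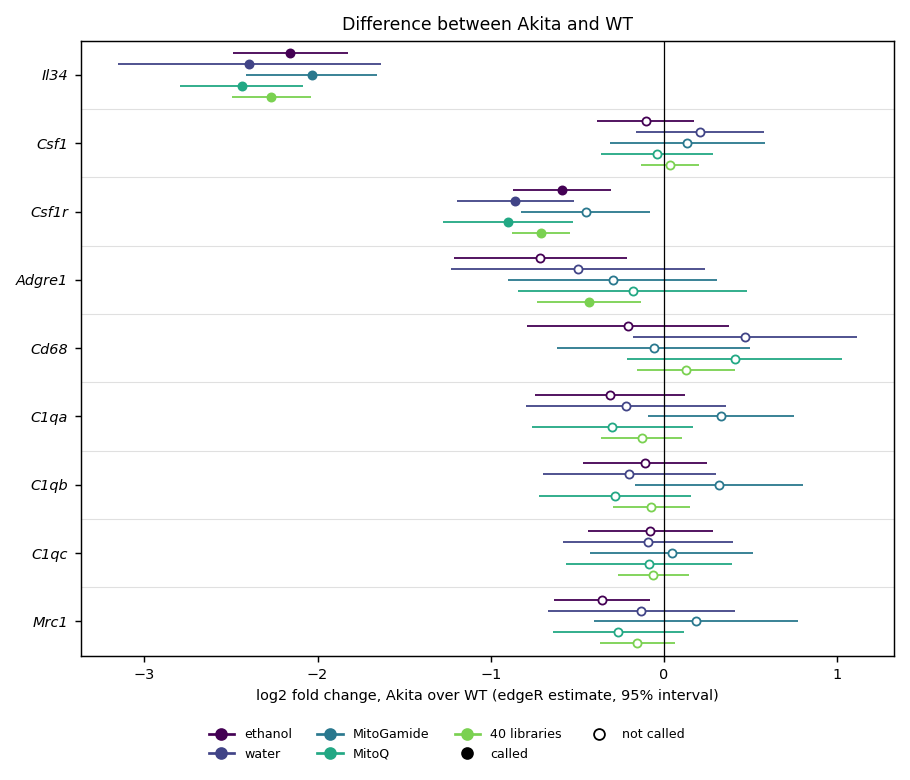
Log2 fold change of Akita against WT for the 9 tested members in each treatment pair and over all 40 libraries, with bars for the 95% interval; the vertical line at 0 marks no difference. Il34 lies at -2.03 or lower in each comparison and Csf1r below 0 in each, while Csf1, Cd68 and the C1q genes have intervals that span 0.

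Over the 40 libraries the fold changes of the other macrophage genes were smaller than that of Csf1r, a difference between genes that was not tested. In GRCm38 Adgre1 lies on chromosome 17 (57358691 to 57483527, plus strand), Cd68 on chromosome 11 (69664213 to 69666153, minus strand), Mrc1 on chromosome 2 (14229392 to 14332057, plus strand) and Ccl2 on chromosome 11 (82035571 to 82037453, plus strand). Adgre1 averaged 3.07 ± 1.10 CPM in Akita and 4.14 ± 1.84 CPM in WT (SD, n = 20 each), a log2 fold change of -0.43 (SE 0.15, adjusted p = 0.0305 by edgeR). That call was lost with no filter on low counts (adjusted p = 0.0812), without the ethanol libraries (-0.30, adjusted p = 0.302) and without the MitoGamide libraries (-0.46, adjusted p = 0.0804). On ethanol Adgre1 stood at 4.55, 6.23, 3.68, 4.14 and 7.20 CPM in WT and at 1.84, 3.25, 3.88, 2.73 and 4.02 CPM in Akita. That difference was -0.71 (SE 0.23) with an adjusted p of 0.0514 by edgeR and of 0.0218 by DESeq2, and edgeR called it too with no filter (0.0377), with at least 10 counts in each library (0.0452), and without Akita replicate 5 (0.0420) or WT replicate 3 (0.0307). On the other treatments it lay between -0.50 and -0.18.

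The remaining 5 tested macrophage genes were not called between the genotypes in any pair or over all libraries. Over the 40 libraries the log2 fold change was 0.13 for Cd68 (95% interval -0.15 to 0.41), -0.13 for C1qa (-0.36 to 0.10), -0.07 for C1qb (-0.30 to 0.15), -0.06 for C1qc (-0.27 to 0.14) and -0.15 for Mrc1 (-0.37 to 0.06). The C1q genes, which lie side by side on the minus strand of chromosome 4 between 136880129 and 136898803, averaged 4.88, 7.74 and 4.60 CPM in Akita and 5.22, 7.95 and 4.80 CPM in WT for C1qa, C1qb and C1qc. Mrc1 on ethanol was the exception in one respect: its 5 Akita mice (2.82, 3.30, 3.18, 3.14 and 3.26 CPM) lay below its 5 WT mice (3.33, 4.31, 3.92, 3.84 and 4.88 CPM), with a log2 difference of -0.36 and an adjusted p of 0.0757. Ccl2 was at 0 to 5 counts in each library and at 0 in 6, 3 of each genotype, where 3 counts correspond to 0.137 to 0.342 CPM, so a difference in Ccl2 was not detectable at this depth.

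**Figure D3:**
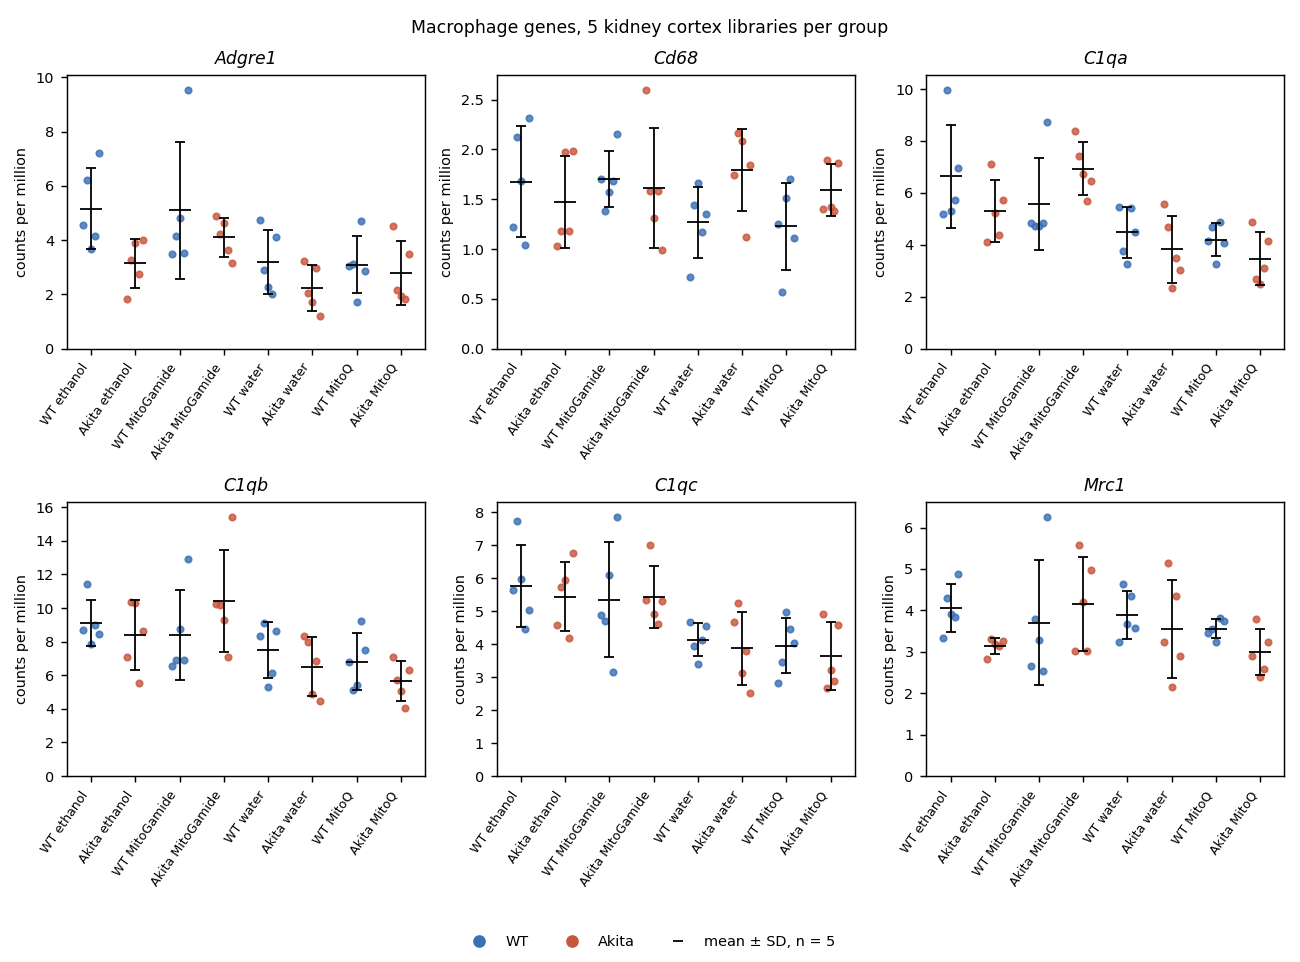
Normalised read counts (CPM, linear axes from 0) of Adgre1, Cd68, C1qa, C1qb, C1qc and Mrc1 in the 8 groups; each point is 1 mouse, and bars give the mean and SD of 5 mice. The genotypes overlap in nearly every pair, and WT replicate 5 on MitoGamide is the highest WT mouse of that treatment in each panel.

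A single WT mouse weighed on the MitoGamide pair. Replicate 5 of that group was the highest of its 5 for Csf1, Csf1r, Adgre1, Cd68, C1qa, C1qb, C1qc and Mrc1, with 9.53 CPM of Adgre1 where the other 4 had 3.47 to 4.80 CPM, and 8.73 CPM of C1qa where the other 4 had 4.71 to 4.85 CPM. The 5 Akita mice given MitoGamide had 8.37, 7.43, 6.72, 5.69 and 6.45 CPM of C1qa. With all 10 libraries C1qa differed by 0.33 (SE 0.19, adjusted p = 0.266 by edgeR), and without that mouse it was higher in Akita by 0.57 (adjusted p = 0.0201). Adgre1 went from -0.30 to 0.08 when the same mouse was left out, and neither value was called.

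Against the rest of the transcriptome, 3 of the 9 tested members were called lower in Akita over the 40 libraries (Il34, Csf1r and Adgre1), where 11.8% of all genes tested were. By edgeR 0 were called higher, as by DESeq2 and at an unadjusted p under 0.05, where 11% of all genes were called higher. Its median log2 fold change was -0.13, against -0.02 over all genes tested. Groups without overlap over the 40 libraries, with Akita lower, occurred for 1 member, Il34, and for 0.158% of all genes. In the ethanol pair 2 members were called lower (8.22% of all genes) and 3 had groups without overlap (7.43%). In the water pair 2 were called lower (0.366%) and 2 did not overlap (1.6%). In the MitoGamide pair 1 was called lower (6.6%) and 1 did not overlap (7.02%). In the MitoQ pair 2 were called lower (0.292%) and 2 did not overlap (1.54%). Since the members were named with genotype differences known, nothing is read from these shares.

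Csf1r was set against the other macrophage genes and against a leukocyte gene within each library. Its level relative to the sum of Adgre1, Cd68, C1qa, C1qb, C1qc and Mrc1 had a median of 0.830 in Akita (0.495 to 1.47) and of 1.29 in WT (0.741 to 2.07), in 20 libraries each. The summed level of those 6 genes had a median of 25.7 CPM over all Akita mice and of 26.3 CPM over all WT mice. By treatment its median was higher in Akita on MitoGamide (34.5 against 25.7 CPM) and on ethanol (30.4 against 28.6 CPM, where the mean was lower, 26.9 against 32.4 CPM), and lower on water (22.5 against 25.8 CPM) and on MitoQ (18.9 against 21.5 CPM), and the groups overlapped under each treatment. Relative to Ptprc, which encodes the CD45 antigen of all leukocytes, the median of Csf1r was 1.80 in Akita and 1.84 in WT. Ptprc itself averaged 11.3 ± 1.19 CPM in Akita and 16.7 ± 3.51 CPM in WT, a log2 fold change of -0.56. The ratio of Csf1r to the 6 macrophage genes had a lower median in Akita under each treatment (0.831 against 0.976 on ethanol, 0.693 against 1.02 on MitoGamide, 0.828 against 1.38 on water and 0.920 against 1.47 on MitoQ). The ratio to Ptprc had a lower median in Akita on water (1.61 against 2.33) and on MitoQ (1.67 against 2.40), and a higher one on ethanol (1.80 against 1.71) and on MitoGamide (1.84 against 1.61). Without the libraries low in protein-coding counts the ratio to the 6 genes had medians of 0.807 against 1.37 on water and 0.920 against 1.63 on MitoQ, and the ratio to Ptprc of 1.61 against 2.23 and 1.67 against 2.61, Akita against WT. These ratios were not tested.

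Lists of related genes were described in the same fit of 40 libraries, and most of the genes named from them were chosen after their values were seen. In this fit 11.8% of all genes tested were called lower and 11% higher, which each list's counts stand beside, and nothing is called particular to a list. Of 21 genes of the CSF1R pathway 19 were tested, 4 were called lower and 2 higher, with a median of -0.11. Besides Il34 and Csf1r the lower ones were Plcg2, a phospholipase (-0.23), and Cbl, a ubiquitin ligase that acts on the receptor (-0.16). Sdc1, a syndecan that also binds the Il34 product, was higher (0.28, SE 0.08, adjusted p = 0.0102), as was Irf8, a transcription factor of the monocyte lineage (0.22). Ptprz1, another receptor for the Il34 product, had 0.824 CPM in the Akita mice and 0.911 CPM in the WT mice and was not called.

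Of 24 further macrophage markers 21 were tested, 4 were called lower and 1 higher, with a median of -0.16, where 11.8% of all genes were lower and 11% higher. Lower were Fcgr1, a receptor for antibody (-0.57), the antigen presentation genes H2-Ab1 (-0.41, SE 0.09, adjusted p = 0.000657) and Cd74 (-0.37), and Laptm5 (-0.34), and the higher one was Cd14, the lipopolysaccharide co-receptor (0.45). Fcgr1 averaged only 11.55 counts over all libraries, with 0.576 CPM in Akita and 0.848 CPM in WT. Fcgr1 thus passed the count minimum mainly through the WT libraries, and its call and fold change are descriptions only. Of 19 genes of monocyte recruitment and injury only 9 were tested, of which 4 were higher (11% of all genes) and 1 lower (11.8%), with a median of 0.08. Spp1, which encodes osteopontin, rose by 1.23 (SE 0.13, adjusted p = 9.29e-10), Lcn2 by 1.46, Icam1 by 0.40 and Plac8 by 0.34. Lcn2 averaged only 13.95 counts over all libraries, with 1.32 CPM in Akita and 0.423 CPM in WT. Lcn2 thus passed the count minimum mainly through the Akita libraries, and its call and fold change are descriptions only. Ccr2, the receptor for the Ccl2 product, was lower by a log2 fold change of -0.57 (SE 0.11, adjusted p = 0.000148).

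Among markers of other leukocytes, calls fell on some dendritic cell genes and some genes shared by all leukocytes. Of 6 dendritic cell markers 5 were called lower (Cd209a -1.29, Xcr1 -0.76, Itgax -0.69, Clec9a -0.53 and Flt3 -0.49) in Akita, where 11.8% of all genes were, with a median of -0.61 over the 6. Zbtb46, the one with most counts, averaged 12.4 CPM over Akita mice and 11.3 CPM over WT mice (log2 0.12) and was not called. The summed level of the 6 ran from 16.3 to 25.3 CPM in Akita and from 16.3 to 35.0 CPM in WT. Cd209a and Xcr1 averaged 10.3 and 11.0 counts over the 40 libraries, just above the minimum of 10. They had 0.376 and 0.538 CPM in Akita against 0.926 and 0.888 CPM in WT, and so passed mainly through the WT libraries. The calls and fold changes of Cd209a and Xcr1 are therefore descriptions only. Of 4 markers of all leukocytes 2 were lower (Ptprc and Laptm5), Coro1a (-0.23, adjusted p = 0.122 by edgeR) and Cd53 (-0.04, adjusted p = 0.902) were not called, and the sum ran from 18.1 to 26.8 CPM against 21.2 to 45.8 CPM. T cell markers summed to 1.91 to 6.07 CPM in Akita and 2.36 to 8.22 CPM in WT, B cell markers to 0.412 to 1.27 and 0.462 to 3.39 CPM, and neutrophil markers to 1.23 to 10.8 and 0.934 to 7.57 CPM, with adjusted p from 0.116 to 0.844 for the 3 T cell and 2 neutrophil markers that could be tested and no B cell marker tested. No marker of these lists was at 0 in all libraries. Of the kidney's own cells, 2 of 8 proximal tubule markers and 1 of 2 thick ascending limb markers (Umod, -0.50) were lower, where 11.8% of all genes were. Of 4 podocyte markers 3 were higher, as were 3 of 4 markers of distal tubule and collecting duct, where 11% of all genes were. Of 4 endothelial markers Pecam1 (0.27) and Cdh5 (0.28) were higher and Emcn (-0.22) lower. The part of these cell types in the levels of Csf1r and Il34 was not tested.

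**Figure D4:**
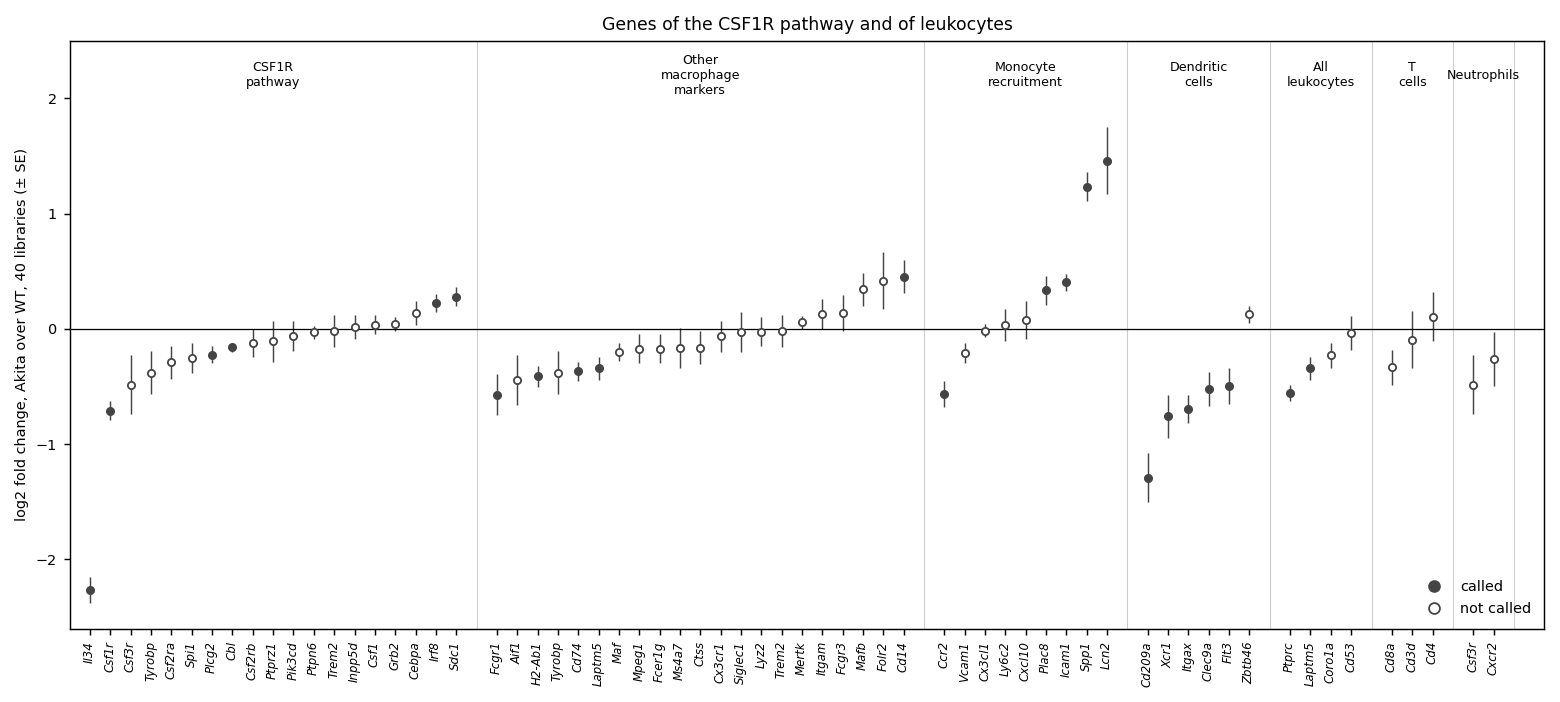
Log2 fold change of Akita against WT over 40 libraries for each tested gene of the CSF1R pathway and leukocyte lists; each point is 1 gene with its SE as a bar, filled where edgeR called it and open where it did not. Il34 is the lowest point at -2.27. Of 6 dendritic cell markers 5 are filled below 0, where 11.8% of all genes tested were called lower. Among these 5, Cd209a and Xcr1 passed the count minimum mainly through the WT libraries. Zbtb46, the marker with most counts, lies above 0 at 0.12 and is open.

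The compounds did not shift the members by a called amount. MitoGamide against its ethanol vehicle in Akita mice gave 0 of 9 tested members called by edgeR and 0 by DESeq2, with 3 at an unadjusted p under 0.05 (Csf1 0.32, C1qa 0.40 and Mrc1 0.42 on the log2 scale), where 1.26% of all genes tested were called and 20.9% had an unadjusted p under 0.05. DESeq2 called 1022 genes in this comparison. All 9 fold changes of the members were above 0, from 0.01 to 0.42, with a median of 0.32, where the median over all genes tested was -0.0021. Markers of other cells in the same comparison had a median of 0.57 for 4 endothelial genes (Cdh5 called), 0.62 for 4 red blood cell genes and 0.31 for 4 stromal genes, against -0.08 for 8 proximal tubule genes, and their part in the members' values was not tested. Il34 itself moved by 0.06 (95% interval -0.31 to 0.43) and Csf1r by 0.08 (-0.26 to 0.41). In WT mice MitoGamide gave 0 calls by edgeR and 0 by DESeq2 and 0 members at an unadjusted p under 0.05, where edgeR called 0% of all genes, DESeq2 called 73 genes and 10.6% had an unadjusted p under 0.05 by edgeR. Il34 differed there by -0.06 (-0.40 to 0.28).

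MitoQ against water gave 0 of 9 members called by edgeR, 0 by DESeq2 and 0 at an unadjusted p under 0.05 in either genotype. Of all genes edgeR called 0% in both genotypes, DESeq2 called 0 in Akita and 2 in WT, and 1.96% in Akita and 3.22% in WT had an unadjusted p under 0.05. Il34 moved by -0.14 in Akita (95% interval -0.78 to 0.50) and by -0.09 in WT (-0.64 to 0.46), and Csf1r by -0.02 (-0.36 to 0.31) and 0.01 (-0.35 to 0.37). A change of Il34 within these intervals was not detectable with 5 mice a group.

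The choice of vehicle could be compared too, since neither the ethanol nor the water groups received a compound. In Akita mice Csf1 was lower on ethanol (6.16, 6.13, 5.16, 6.42 and 5.83 CPM) than on water (7.15, 8.90, 8.16, 7.57 and 7.92 CPM), and the groups did not overlap. The log2 fold change was -0.39 (SE 0.11, adjusted p = 0.0423 by edgeR), the 1 call among 9 members, where 9.07% of all genes were called lower and 6.26% had groups apart with ethanol lower. It held without Akita replicate 1 or 4 on water and was lost when any other library was left out (adjusted p up to 0.102). It was also lost with no filter (log2 -0.28, adjusted p = 0.178), in the fit of all 40 libraries (0.0759) and without the libraries low in protein-coding counts (0.177). C1qc was the other member at an unadjusted p under 0.05 (0.50), where 39.7% of all genes were. Without Akita replicate 1 on water C1qa was called as well (0.68, adjusted p = 0.0362). Markers of other cells also differed between the vehicles: 4 podocyte markers had a median of -0.41 in Akita (Nphs1 and Wt1 called lower) and of -0.76 in WT (none called by edgeR), all 4 below 0 in each genotype, and 8 proximal tubule markers had medians of 0.30 and 0.32, all 8 above 0. Their part in the members' values was not tested.

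In WT mice on ethanol against water edgeR called 0 of 9 members and DESeq2 0 of 9, where DESeq2 called 724 genes in all, and Adgre1 (0.69), C1qa (0.59) and C1qc (0.49) had an unadjusted p under 0.05. Of all genes edgeR called 0%, and 27.4% had an unadjusted p under 0.05. Csf1 in these WT mice had 5.45, 8.66, 5.76, 6.34 and 6.19 CPM on ethanol and 5.66, 6.52, 8.49, 8.48 and 5.23 CPM on water, with the groups overlapping. The log2 fold change of Il34, ethanol against water, was 0.07 in Akita (95% interval -0.52 to 0.67) and -0.15 in WT (-0.71 to 0.42), and neither was called. Its sign rested on single libraries: it ran from -0.12 without Akita replicate 1 on water to 0.27 without Akita replicate 3 on water, and was -0.03 without Akita replicate 4 on water. In WT it ran from -0.32 without replicate 2 on water to 0.09 without replicate 1 on water. The labels do not say whether the ethanol and water arms were handled together, and the arm and the vehicle cannot be told apart.

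The test of whether an effect differed between genotypes called 0 of 9 members by edgeR, and 0 by DESeq2, for MitoGamide, for MitoQ and for the vehicle. Of all genes edgeR called 0% in each, and DESeq2 called 0, 0 and 2 genes. For MitoGamide 1 member had an unadjusted p under 0.05, C1qa (0.63, 95% interval 0.01 to 1.25, adjusted p = 0.597), where 8.32% of all genes did. For MitoQ and for the vehicle 0 did. For Il34 the differences were 0.12 (95% interval -0.36 to 0.60) for MitoGamide, -0.04 (-0.84 to 0.76) for MitoQ and 0.24 (-0.57 to 1.05) for the vehicle.

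**Figure D5:**
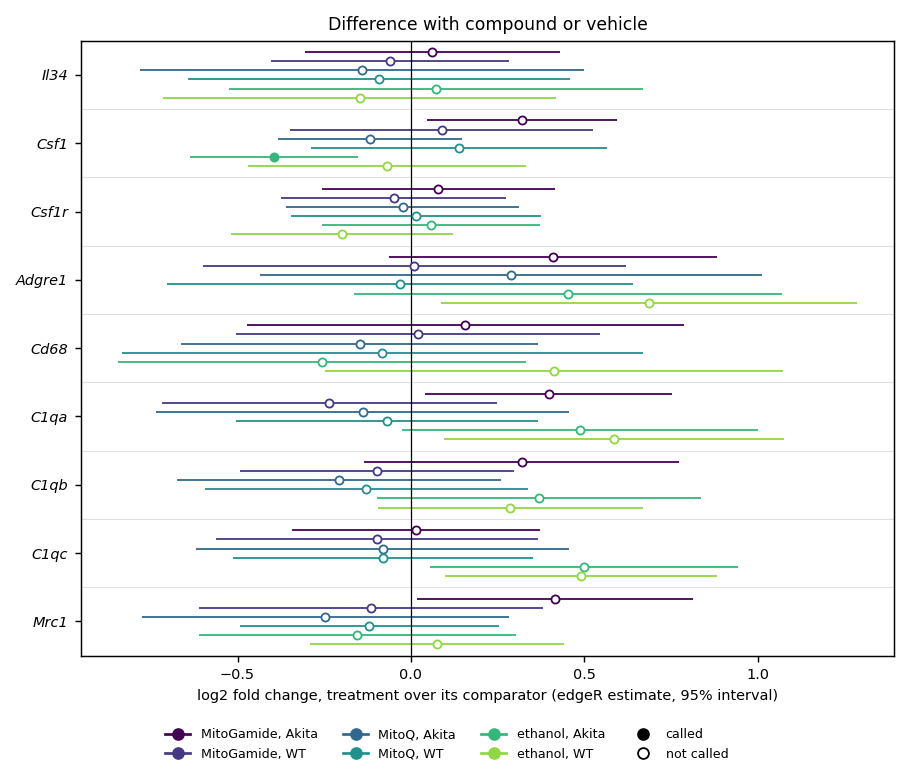
Log2 fold change of the 9 tested members for MitoGamide against ethanol, MitoQ against water and ethanol against water in each genotype, with bars for the 95% interval; the vertical line at 0 marks no difference. Il34 lies between -0.15 and 0.07 and Csf1r between -0.20 and 0.08, and Csf1 on ethanol against water in Akita, at -0.39, is the call among them.

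The members varied together from mouse to mouse in part. After each group's mean was taken off, Adgre1 and C1qa had the highest correlation over the 40 libraries (r = 0.725), followed by Adgre1 and C1qb (r = 0.670) and by the pairs of C1q genes (r = 0.647 to 0.653). The correlations of Il34 with other members ran from -0.240 with C1qb to 0.365 with Csf1r. That last value was also the highest of Csf1r with any member, next to 0.364 with Adgre1. These values describe libraries that share each gene's normalisation and depth, and 5 mice a group.

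The genes whose log2 CPM followed Il34 most closely over the 40 libraries were Gm6300 (Pearson r = 0.958), Cntnap5a (0.942), Gm15895 (0.942), Spats2l (0.939) and Lpl (0.931). The Il34 values of the genotypes do not overlap, so these correlations over both genotypes follow that split. Within the 20 Akita libraries the correlations were only 0.291, 0.141, 0.0567, 0.389 and 0.215, in the same order. Within the 20 WT libraries they were 0.480, 0.618, 0.699, 0.753 and 0.216. Gm6300 had 0.241 CPM in Akita mice and 20.7 CPM in WT mice, and Lpl, lipoprotein lipase, had 105.6 and 448.7 CPM. Cntnap5a had 0.476 and 7.67 CPM, and Gm15895 had 0.184 and 2.15 CPM. Gm6300, Cntnap5a and Gm15895 thus passed the count minimum mainly through the WT libraries. Their correlations with Il34, which is also higher in WT, are therefore descriptions only. For Csf1r the closest were Myo5a (0.922), Kif20b (0.865), Slc22a7 (0.861), Slc9a8 (0.861) and Kcng1 (0.851). Myo5a, a myosin motor, kept most of this within the genotypes (0.726 in Akita and 0.812 in WT), and averaged 21.0 CPM in Akita and 47.8 CPM in WT. Within Akita the values of the others were 0.514 (Kif20b), 0.573 (Slc22a7), 0.305 (Slc9a8) and 0.716 (Kcng1). Within WT they were 0.622, 0.717, 0.836 and 0.796 in the same order. Kcng1 had 0.279 CPM in Akita and 1.08 CPM in WT. It too passed the count minimum mainly through the WT libraries, and its correlation is a description only. The members themselves were left out of this search.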

How the data were processed

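Renal cortex RNA from 40 mice was depleted of ribosomal RNA, made into strand-specific libraries (NEBNext Ultra II Directional) and sequenced as single reads. Per the labels and the study's methods, the authors trimmed reads with Skewer, quantified them with kallisto 0.46.1 against GENCODE mouse transcripts and summed the estimated counts to genes in R 4.0.2, and the deposited table holds these estimated counts, unnormalised, for 55401 genes. They were rounded to whole numbers here. The members and all gene lists were chosen with earlier results of these data known. From the CSF1R pathway list 1 gene is not reported here and was left out of the list's counts and plot.

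The fit of each comparison used the libraries of its own groups and edgeR 4.0.16 (R 4.3.3, TMM, glmQLFit and glmQLFTest), for genes that averaged 10 counts or more in them, with Benjamini-Hochberg adjustment over all genes tested and a threshold of 0.05. The genotype fit over 40 libraries had treatment as a term. Intervals (95%) used the t distribution of that test. CPM used TMM-scaled library sizes. All 10 members were named. Of each list, the rule named the gene with the smallest p for a rise and the one with the smallest p for a fall, and the 5 genes most correlated with Il34 and with Csf1r over 40 log2 CPM values (prior count 2). Other list genes in the text were chosen after their values were seen. Positions and exon lengths came from GENCODE release 21 (GRCm38), which held 99.5% of the gene identifiers. The authors quantified against release 25, so exon lengths and overlaps given here may differ from those behind the counts. Levels per kb divide CPM by the summed exon length, not by kallisto's effective length. Antisense and overlapping genes are uncertain for the reason given with Gm15895. The fits were tested on simulated counts. Alternatives were DESeq2 1.42.0, RLE scaling, no filter, a minimum of 10 counts in each library, the replicate number as a block, 1 fit of all libraries, leaving out libraries, and, chosen after seeing the data, leaving out libraries under 50% protein-coding counts. Totals of 9106654 to 24321424 limit genes of few counts most. Replicates differed by more than sampling noise, and none was merged.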

Additional observations from a re-analysis of the deposited data

Results flagged for a closer look

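In 6 of 96 groups of 5 that were examined, 1 library stood apart from the other 4 by Dixon's ratio (critical value 0.71), where chance alone gives about 5%, or 4.8 groups. For Il34 it was WT replicate 1 on ethanol, at 11.3 CPM where the other 4 ran from 6.80 to 7.88 CPM. For Csf1 it was WT replicate 2 on ethanol, at 8.66 CPM against 5.45 to 6.34 CPM, and WT replicate 3 on MitoQ, at 10.6 CPM against 6.38 to 7.51 CPM. For Adgre1 and C1qa it was the same mouse, WT replicate 5 on MitoGamide, at 9.53 CPM against 3.47 to 4.80 CPM and at 8.73 CPM against 4.71 to 4.85 CPM. The share of counts from protein-coding genes was 27.1% in WT replicate 3 on MitoQ and 56.5% to 64.8% in the other 4 libraries of that group.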

How the results depend on the processing

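Every alternative to the 40-library fit kept Il34 and Csf1r among the genes called lower in Akita. In the main analysis edgeR called, of all genes tested, 16.4% on ethanol, 0.552% on water, 14.3% on MitoGamide and 0.557% on MitoQ. For ethanol against water in Akita it called 12.7%. DESeq2 called 3082 genes on MitoGamide, where edgeR called 2386. In the pairs, the number of members called moved as follows. On water it fell from 2 to 0 with the replicate block and to 0 without the libraries low in protein-coding counts, and was 0 to 2 when single libraries were left out. On MitoGamide it rose from 1 to 2 in the fit of all 40 libraries and was 1 to 2 with single libraries left out. On MitoQ it fell from 2 to 1 with no filter and to 1 with the replicate block, and was 1 to 2 with single libraries left out. For ethanol against water in Akita it fell from 1 to 0 with no filter, with the replicate block, in the fit of all 40 libraries and without the libraries low in protein-coding counts, and was 0 to 2 with single libraries left out. On ethanol it was 2 in the main analysis, 3 by DESeq2, with no filter, with at least 10 counts in each library and with the replicate block (Adgre1 in addition), and 2 to 3 with single libraries left out. The cause of these moves was not tested, beyond the fewer samples of the fits that leave libraries out.

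The replicate numbers were not taken to pair the samples (0 of 10 comparisons had all same-numbered pairs correlated above 0.1, with r from -0.451 to 0.655). For Akita against WT on water 3 of 5 pairs were above 0.1, as were 3 of 5 for MitoQ against water in Akita. In each of these, 1 of 5 libraries correlated best with the library of its own number. Whether some libraries were paired cannot be told from this rule. With the block the Il34 fold change on water was -2.36, with an adjusted p of 0.0736, and the block also ended the calls of Csf1r on water (0.109) and on MitoQ (0.151) and of Csf1 for ethanol against water in Akita (0.0889). Of 2265 log2 fold changes under alternatives, 2073 kept direction and call, 39 lost a call, 9 gained one, 144 changed sign while never called, and 0 called values changed sign.

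Counts over all genes moved by more than 1.5 times in several comparisons. On ethanol 2910 genes were called, against 3116 by DESeq2 and 844 in the fit of all libraries. On water 101 were called, against 354 by DESeq2, 547 in the fit of all libraries, 32 with the block and 8 without the libraries low in protein-coding counts. On MitoQ 101 were called, against 415, 308, 48 and 270. For MitoGamide in Akita 214 were called, against 1022 by DESeq2, 32 in the fit of all libraries and 0 with the block. For ethanol against water 2283 were called in Akita (4264 by DESeq2, 1352 with no filter, 0 with the block, 1 without the low libraries) and 0 in WT (724 by DESeq2, 1567 in the fit of all libraries). At 14 to 42 counts in Akita, Il34 is measured with wide error in any single mouse.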
